A study of Mus musculus with 8 samples.

Results

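Proneural factors and the genes of intermediate progenitors were examined in E14.5 mouse brains after a choline-deficient maternal diet. The set was chosen by gene name, with earlier results of these data known. It holds *Neurog1*, *Neurog2*, *Eomes*, *Insm1*, *Neurod1*, *Neurod4*, *Nhlh1*, *Neurod2* and *Neurod6*, which are 9 of the 33971 genes in the count table. All 9 passed the filter on low counts and were among the 19367 genes tested. Wild-type (WT) females were mated with WT males and kept on either a choline-deficient diet (CDD) or normal chow (ND), and the whole brains of their WT embryos were taken at E14.5, with 4 brains per diet. The study's sources differ on whether the CDD began at mating or before it, and the number of dams and litters was not given, so the p-values measure only the spread between these brains. The gene counts of a brain summed to between 31770217 and 43121170. Levels are given as CPM, the count of a gene relative to the scaled total of its library. In CDD replicate 2, 6 Hox genes of caudal hindbrain and spinal cord summed to 92.7 CPM, while they reached at most 0.176 CPM in any ND brain. The log2 fold changes of the 9 genes are therefore also given without CDD replicate 2.

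Neurons of the dorsal brain arise in steps. Radial glia, the stem cells that line the ventricle, switch on proneural basic helix-loop-helix (bHLH) factors such as *Neurog2*, which pair with E proteins, bind DNA at E-boxes and start neuronal differentiation, while Id, Hes and Hey proteins hold them back. In the cortex many of the daughters become intermediate progenitors, which carry *Eomes* (also called *Tbr2*) and divide away from the ventricle, and factors of the Neurod and Nhlh families then act in newborn and maturing neurons. The gene table lists 7 of the 9 genes as bHLH factors, *Eomes* as a T-box factor and *Insm1* as a C2H2 zinc finger.

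*Neurog2*, *Nhlh1* and *Neurod4* were higher in CDD brains, by 1.25-fold, 1.40-fold and 1.497-fold, and *Neurod2*, a gene of maturing excitatory neurons, was lower, at 0.869 of its ND level. In edgeR's quasi-likelihood test, 4 of the 9 genes passed a threshold of 0.05 after Benjamini-Hochberg adjustment, as did 8.83% of all tested genes. Of these, 3 were higher, against 4.24% of all tested genes called higher, and 1 was lower, against 4.59% called lower. The calls of *Neurog2* and *Nhlh1* held in all 8 fits with 1 brain left out. That of *Neurod4* held in 5 of the 8 and that of *Neurod2* in 1. At an unadjusted p-value of 0.05 there were 6 of the 9, against 23.9% of all tested genes. The log2 fold change of CDD over ND was above 0 for 6 genes and below 0 for 3, with a median of 0.17, while the median over all tested genes was -0.0038. CDD and ND brains lay fully apart in 2 of the 9 genes, *Neurog2* and *Nhlh1*, against 15.0% of all tested genes. Both were higher in the CDD brains, where 7.65% of all tested genes lay apart in this direction and 7.39% in the other. Since the set was chosen with earlier results of these data known, its counts are a description. In RNA from whole brains, more cells of a type and more RNA per cell cannot be told apart.

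**Figure D1:**
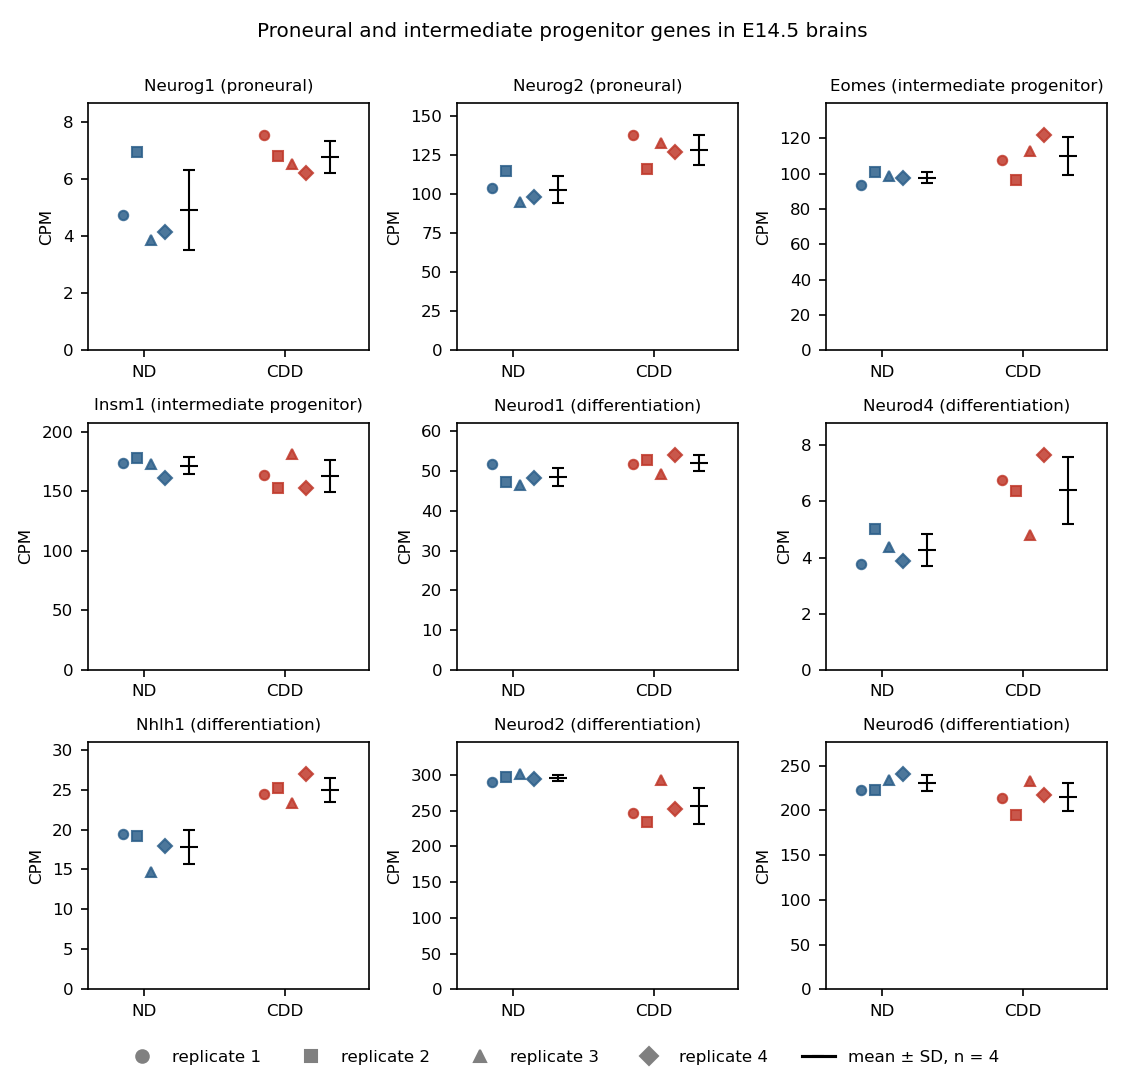
CPM of each gene in each brain, with 1 panel per gene, axes from 0, a symbol per replicate and a bar for the mean ± SD of 4 brains. All 4 CDD brains lie above all 4 ND brains for *Neurog2* and *Nhlh1*, while CDD replicate 3 lies among the ND brains for *Neurod2*.

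The promoters of the 4 genes past the threshold are printed to show the E-boxes in them, since proneural factors act on one another's genes through this motif. Each runs from 250 bases before to 50 bases after the RefSeq start site on GRCm38.p6, 5′ to 3′ on the strand of the gene, with every CANNTG in capitals. They are chr3:127632886-127633185 for *Neurog2* (plus strand), chr10:130280205-130280504 for *Neurod4* (minus strand, the first of 2 listed starts), chr1:172057547-172057846 for *Nhlh1* (minus strand) and chr11:98329596-98329895 for *Neurod2* (minus strand).
Neurog2: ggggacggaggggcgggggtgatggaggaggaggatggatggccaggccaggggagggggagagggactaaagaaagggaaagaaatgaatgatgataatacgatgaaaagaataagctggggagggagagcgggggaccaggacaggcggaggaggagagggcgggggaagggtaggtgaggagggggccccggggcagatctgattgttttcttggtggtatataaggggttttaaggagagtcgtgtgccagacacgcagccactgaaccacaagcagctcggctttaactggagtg
Neurod4: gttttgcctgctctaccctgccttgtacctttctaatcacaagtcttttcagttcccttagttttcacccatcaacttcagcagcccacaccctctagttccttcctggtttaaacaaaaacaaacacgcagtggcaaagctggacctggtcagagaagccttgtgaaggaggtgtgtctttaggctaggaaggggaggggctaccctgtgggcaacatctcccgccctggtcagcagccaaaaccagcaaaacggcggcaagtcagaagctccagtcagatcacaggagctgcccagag
Nhlh1: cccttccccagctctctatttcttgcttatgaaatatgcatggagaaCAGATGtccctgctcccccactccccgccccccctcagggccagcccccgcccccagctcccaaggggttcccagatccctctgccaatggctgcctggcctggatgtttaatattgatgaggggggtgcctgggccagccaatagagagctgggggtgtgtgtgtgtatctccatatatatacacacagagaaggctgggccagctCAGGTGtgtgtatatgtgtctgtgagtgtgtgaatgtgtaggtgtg
Neurod2: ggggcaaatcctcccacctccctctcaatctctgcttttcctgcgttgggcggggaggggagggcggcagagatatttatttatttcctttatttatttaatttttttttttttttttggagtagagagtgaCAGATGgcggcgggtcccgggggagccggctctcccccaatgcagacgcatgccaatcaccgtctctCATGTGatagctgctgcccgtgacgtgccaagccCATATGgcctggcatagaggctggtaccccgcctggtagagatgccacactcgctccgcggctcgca

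The letters CANNTG read the same on both strands. They were found in 5 of the 8 promoters that had an entry, and in 72.2% of 27018 mouse promoters of the same length. *Neurod2* had 3 of these motifs, *Nhlh1* and *Neurod6* had 2 each, *Neurog1* and *Neurod1* had 1 each, and the windows of *Neurog2*, *Neurod4* and *Eomes* held none. The form CAGATG, or CATCTG on the other strand, which Neurog and Neurod proteins are known to favour, was in the promoters of *Nhlh1* and *Neurod2* and in 17.2% of all promoters. These are matches of letters and not measured sites. *Insm1* had no promoter entry.

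Of the proneural factors, *Neurog2* (ENSMUSG00000027967, chromosome 3, 127426784 to 127429280 on a build that is not named) commits cortical and other dorsal progenitors to a neuronal fate. It was counted at 138, 116, 133 and 127 CPM in CDD replicates 1 to 4 and at 104, 115, 94.9 and 98.4 CPM in ND replicates 1 to 4. The diets did not overlap, although CDD replicate 2 and ND replicate 2 nearly met. The mean was 128 ± 9.24 CPM with the CDD and 103 ± 8.62 CPM with ND (SD, n = 4 each). This is a log2 fold change of 0.32 with a standard error of 0.060 (edgeR adjusted p = 0.00475). The call was kept with each brain left out in turn, with a log2 fold change between 0.28 and 0.37 and an adjusted p-value between 0.0014 and 0.0433.

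*Neurog1* (ENSMUSG00000048904, chromosome 13, 56398291 to 56399976), its close relative, acts in sensory ganglia, in the midbrain and hindbrain and, at low level, beside *Neurog2* in the cortex. It was at 7.52, 6.78, 6.51 and 6.21 CPM in the CDD brains and at 4.74, 6.94, 3.85 and 4.15 CPM in the ND brains. ND replicate 2 was above 3 of the 4 CDD brains, and the other ND brains were below all of them. Its log2 fold change was 0.46 (95% interval 0.14 to 0.78) and did not pass the threshold (edgeR adjusted p = 0.0659). Without ND replicate 2 it was 0.67 and passed (edgeR adjusted p = 0.00357, where leaving out other brains gave up to 0.216). *Neurog1* rests on 133 to 280 reads per brain, against 3283 to 5704 for *Neurog2*.

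Of the genes of intermediate progenitors, *Eomes* (ENSMUSG00000032446, chromosome 9, 118307280 to 118315200) defines this cell type in the cortex and is also made in the developing cerebellum and by Cajal-Retzius cells. It was at 108, 96.3, 113 and 122 CPM in the CDD brains and at 93.8, 101, 99.0 and 97.6 CPM in the ND brains. The ND brains were tightly grouped, and 3 CDD brains were above all of them, while CDD replicate 2 was among them. Its log2 fold change was 0.17 (95% interval 0.051 to 0.29) and did not pass the threshold (edgeR adjusted p = 0.0687). Without CDD replicate 2 it was 0.23 and passed (edgeR adjusted p = 0.00986, the lowest with a brain left out, the highest being 0.201).

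*Insm1* (ENSMUSG00000068154, chromosome 2, 146063841 to 146066940) encodes a zinc finger repressor that promotes the move from apical to basal progenitors. Its values of 164, 153, 181 and 153 CPM in the CDD brains spanned the 174, 178, 173 and 161 CPM of the ND brains. The log2 fold change was -0.08 (95% interval -0.19 to 0.034, edgeR adjusted p = 0.413), and a correction for GC content turned it to 0.019. *Eomes* and *Insm1*, both used as marks of intermediate progenitors, thus had estimates on opposite sides of 0, and neither passed the test.

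Of the factors of newborn neurons, *Nhlh1* (ENSMUSG00000051251, chromosome 1, 171879859 to 171885140), a bHLH gene expressed briefly as cells leave the cycle, had the smallest p-value of the set. It was at 24.5, 25.2, 23.3 and 26.9 CPM in the CDD brains and at 19.4, 19.2, 14.7 and 17.9 CPM in the ND brains. The lowest CDD brain was well above the highest ND brain. The mean was 25.0 ± 1.54 CPM with the CDD and 17.8 ± 2.18 CPM with ND (SD, n = 4 each), a log2 fold change of 0.49 with a standard error of 0.081 (edgeR adjusted p = 0.00188). When single brains were left out, the estimate lay between 0.41 and 0.53 and the adjusted p-value did not exceed 0.0117.

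*Neurod4* (ENSMUSG00000048015, chromosome 10, 130104021 to 130116109), also called *Math3*, acts in committed precursors of retina, midbrain and hindbrain. It was the least abundant of the 9, with 129 to 254 reads per brain, and was at 6.76, 6.37, 4.81 and 7.66 CPM in the CDD brains and at 3.77, 5.03, 4.39 and 3.86 CPM in the ND brains. The groups overlapped, since CDD replicate 3 was below ND replicate 2. At 0.58, with a standard error of 0.14 (edgeR adjusted p = 0.0153), its log2 fold change was the largest of the set. The call was lost without ND replicate 1, ND replicate 3 or ND replicate 4, where the adjusted p-value rose to at most 0.0658 and the log2 fold change was 0.53, 0.60 and 0.54.

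*Neurod1* (ENSMUSG00000034701, chromosome 2, 79282865 to 79287095) follows *Eomes* in late intermediate progenitors and newborn neurons, and is used by granule cells of cerebellum and hippocampus. It was at 51.9, 52.7, 49.3 and 54.1 CPM in the CDD brains and at 51.9, 47.4, 46.5 and 48.4 CPM in the ND brains. The highest ND brain lay within the range of the CDD brains. The log2 fold change was 0.10 (95% interval -0.0088 to 0.21, edgeR adjusted p = 0.253).

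Of the factors of maturing neurons, *Neurod2* (ENSMUSG00000038255, chromosome 11, 98216241 to 98220474) acts in postmitotic excitatory neurons of the cortex. It was at 247, 234, 293 and 253 CPM in the CDD brains and at 290.0, 297, 301 and 294 CPM in the ND brains. The ND brains differed by little, whereas CDD replicate 3 stood at ND level and the 3 other CDD brains lay below all ND brains. The mean was 257 ± 25.4 CPM with the CDD and 296 ± 4.60 CPM with ND (SD, n = 4 each). CDD over ND gave a log2 fold change of -0.20 with a standard error of 0.057 (edgeR adjusted p = 0.0338). This call held with 1 of the 8 brains left out, CDD replicate 3 (log2 fold change -0.27, adjusted p = 0.00179), and was lost without any other brain, with an adjusted p-value of up to 0.127 in edgeR's test.

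*Neurod6* (ENSMUSG00000037984, chromosome 6, 55654807 to 55658248), which marks the same excitatory neurons, was at 214, 195, 233 and 217 CPM in the CDD brains and at 223, 223, 234 and 241 CPM in the ND brains. The order of the CDD brains was the same as for *Neurod2*, with replicate 2 lowest and replicate 3 highest. Its log2 fold change was -0.10 (95% interval -0.21 to 0.0090, edgeR adjusted p = 0.254). With the diet means removed, *Neurod2* and *Neurod6* had the highest correlation of the 36 pairs of these genes over the 8 brains (Pearson's r = 0.84), followed by *Neurog1* and *Neurog2* (r = 0.79). The median over the 36 pairs was 0.19, and 21 were above 0. Without CDD replicate 2 the median was -0.02, and without any other single brain it lay between 0.11 and 0.20. Without both CDD replicate 2 and ND replicate 3, *Neurod2* and *Neurod6* were at 0.72, below *Neurog1* and *Neurog2* (0.97), *Neurod4* and *Nhlh1* (0.75) and *Neurod1* and *Nhlh1* (0.74). These values are descriptions over brains that share library depth and scaling.

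**Figure D2:**
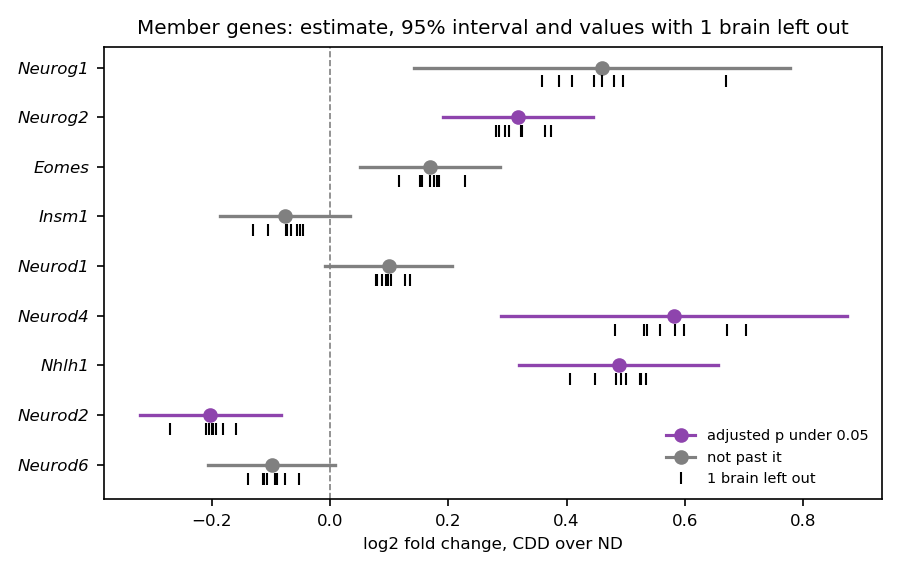
Log2 fold change of CDD over ND for each gene (circle) with its 95% interval (line) from edgeR's test, and the values with 1 brain left out (ticks). *Neurog2*, *Nhlh1* and *Neurod4* lie at 0.32 to 0.58 with intervals above 0, and *Neurod2* at -0.20 with an interval below 0.

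Levels were compared between genes with the authors' FPKM, which divides by gene length. Over the 8 brains the order was *Neurod6* (103 ± 6.52 FPKM, SD), *Neurod2* (87.5 ± 8.37 FPKM), *Insm1* (53.6 ± 3.44 FPKM), *Neurog2* (51.7 ± 7.14 FPKM), *Eomes* (24.9 ± 2.40 FPKM), *Neurod1* (18.3 ± 1.05 FPKM), *Nhlh1* (8.64 ± 1.72 FPKM), *Neurog1* (3.45 ± 0.822 FPKM) and *Neurod4* (1.59 ± 0.431 FPKM). The mean level thus ranged 64.9-fold. The ranges over the 8 brains overlapped for the neighbours *Neurod6* and *Neurod2*, *Insm1* and *Neurog2*, and *Neurog1* and *Neurod4*, and were apart for the other neighbours. *Neurod2* stood 4.77-fold above *Neurod1*. The genes that were higher in CDD brains include the least abundant of the set, and the lower one is among the most abundant.

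**Figure D3:**
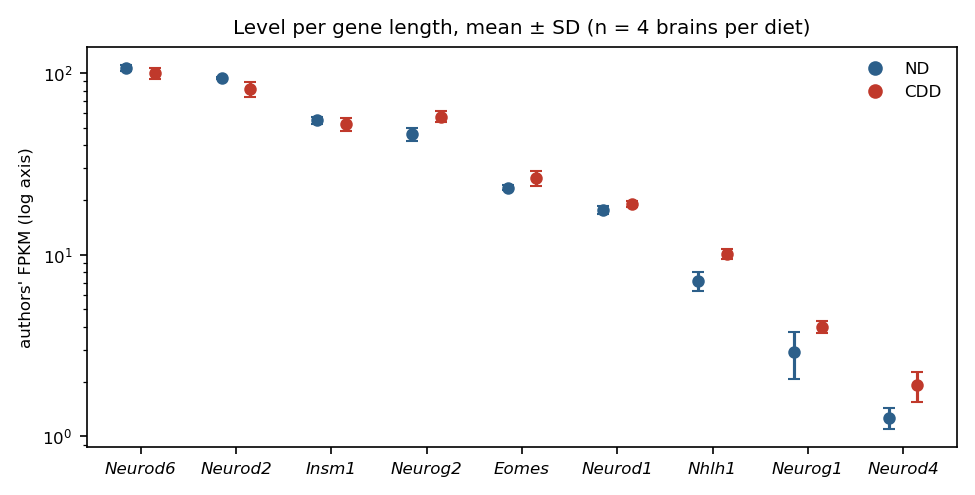
Authors' FPKM of each gene on a log axis, in order of the mean over 8 brains, with the mean ± SD of 4 brains per diet. The levels run from 103 FPKM for *Neurod6* down to 1.59 FPKM for *Neurod4*.

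To ask whether successive steps shifted against each other, ratios within each brain were compared, which do not depend on library scaling. The log2 ratio of *Neurod6* to *Neurod1* was 2.04, 1.89, 2.24 and 2.01 in the CDD brains and 2.10, 2.23, 2.33 and 2.31 in the ND brains. Most CDD brains were below the ND brains, but CDD replicate 3 was not, and the difference of -0.20 (standard error 0.090) did not pass an exact two-sided permutation test (p = 0.0857, adjusted p = 0.286 over 4 ratios). The log2 ratio of *Eomes* to *Neurog2* was -0.23 ± 0.12 with the CDD and -0.07 ± 0.12 with ND (SD, n = 4 each, exact permutation p = 0.143, adjusted p = 0.286). That of *Neurod1* to *Eomes* differed by -0.06 (standard error 0.093, exact permutation p = 0.543, adjusted p = 0.543). For *Eomes* against *Pax6*, a radial glia gene, the difference was -0.08 (standard error 0.066, exact permutation p = 0.257, adjusted p = 0.343). The diets overlapped in all 4 ratios. The smallest p-value this test can give is 0.0286 before adjustment over the 4 ratios. A single ratio with the diets fully apart could therefore not have passed the threshold after adjustment. The adjusted p-values thus cannot decide whether a single step shifted.

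**Figure D4:**
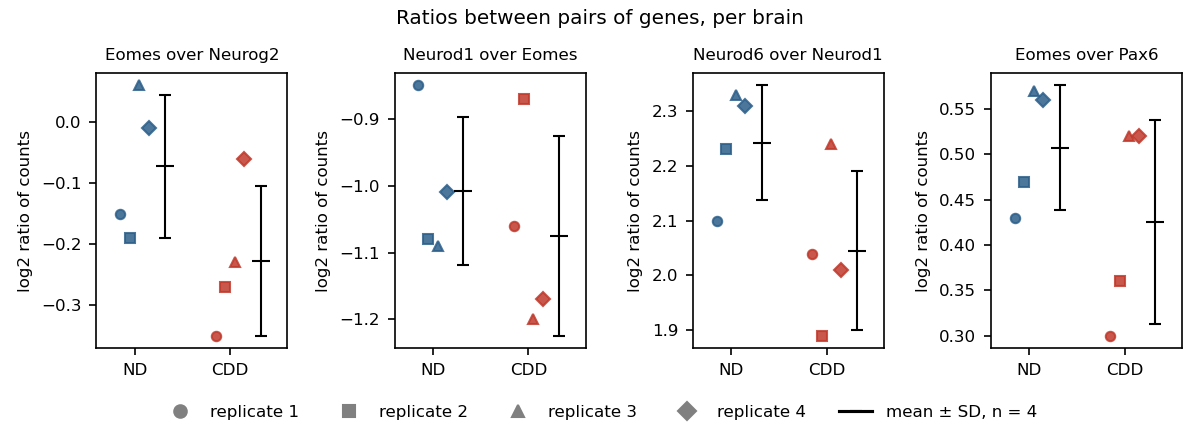
Log2 ratio of the counts of 2 genes in each brain, for 4 pairs of genes, with a symbol per replicate and a bar for the mean ± SD of 4 brains. The axes do not start at 0. CDD and ND brains overlap in every panel.

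The genes around the 9 were taken from 4 lists of related bHLH genes, E proteins, inhibitors and neurogenic targets. These lists were chosen with earlier results of these data known, so their counts are a description. Together they hold 36 genes, of which 33 were tested, 8 were called higher and 3 lower, with a median log2 fold change of 0.17. Of all tested genes, 4.24% were called higher and 4.59% lower. Among 9 tested relatives, *Nhlh2*, the paralog of *Nhlh1*, was higher in CDD brains (log2 fold change 0.30, edgeR adjusted p = 0.0087), as was *Olig3*, of dorsal hindbrain and thalamic progenitors (1.10). *Olig1*, a gene of oligodendrocyte precursors, and *Bhlhe22*, of cortical neurons, were lower, at -0.50 and -0.37. Both Nhlh genes thus rose. Of the 3 E proteins, the dimer partners of the proneural factors, *Tcf12* rose by 0.21 (edgeR adjusted p = 0.00768), while *Tcf3* was at 0.13 and *Tcf4* at 0.10, without passing it.

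Of 9 inhibitors, *Id4* rose by 0.20 and *Id2* fell by 0.33 on the log2 scale. *Hes1*, *Hes5* and *Hey1* had log2 fold changes of 0.23, 0.21 and 0.20 and did not pass the threshold (edgeR adjusted p = 0.0751, 0.106 and 0.0601). Of 12 targets, *Dll3*, a Notch ligand of newborn neurons, rose by 0.31, *Btg2*, an antiproliferative gene of neurogenic divisions, by 0.35 and *Rnd2*, a GTPase that *Neurog2* switches on in migrating neurons, by 0.29. *Dll1* was at 0.18 and *Gadd45g* at -0.05, and neither passed. Beside these lists, the gene table assigns 102 genes to the bHLH family. Without members of the set, 77 of them were tested, and 9 were called higher and 9 lower, with a median log2 fold change of 0.028, where the shares over all tested genes are again 4.24% and 4.59%.

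**Figure D5:**
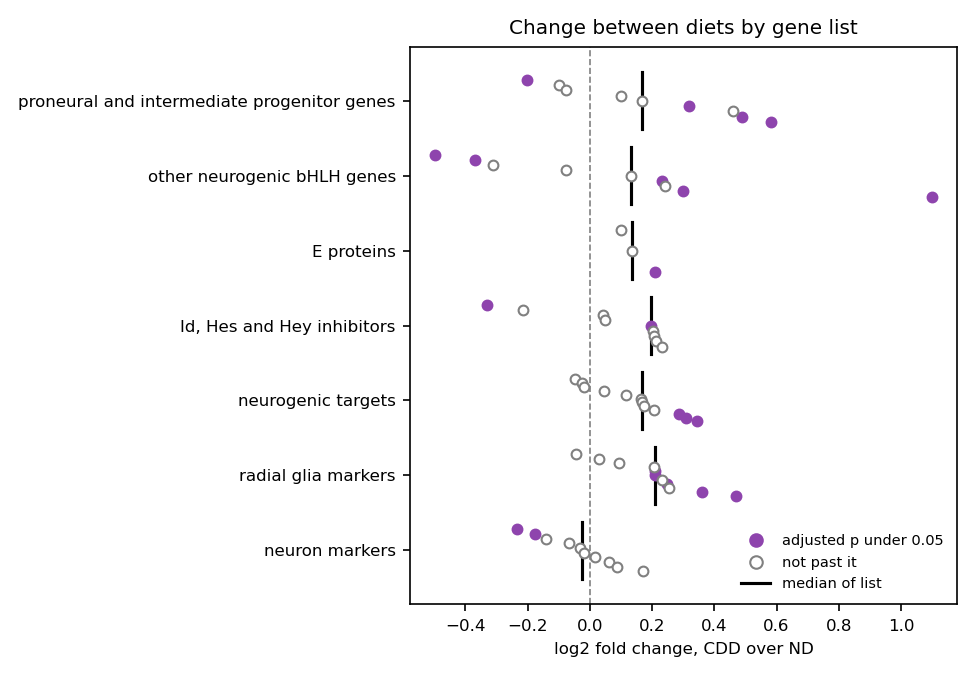
Log2 fold change of CDD over ND for each tested gene, by list, with genes past an adjusted p-value of 0.05 filled and the median of each list as a bar. The medians of the neurogenic lists and of the radial glia markers lie between 0.13 and 0.21, and that of the neuron markers is -0.02.

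Markers of the cells before and after these steps were measured in the same brains. Of 11 radial glia genes, 5 were called higher with the CDD (4.24% of all tested genes), and the median of the list was 0.21. *Nes*, *Prom1* and *Pax6* rose by 0.47, 0.36 and 0.25. *Sox2*, *Slc1a3* and *Fabp7* were at 0.09, 0.03 and -0.04 and did not pass the threshold. The summed level of the 11 genes was 1839 to 2018 CPM in CDD and 1647 to 1771 CPM in ND brains. Of 10 genes of postmitotic neurons, *Snap25* and *Gap43* fell by 0.23 and 0.18, where 4.59% of all tested genes were called lower. *Elavl4*, *Map2*, *Dcx* and *Tubb3* lay on the other side of 0, at 0.17, 0.09, 0.06 and 0.02, and did not pass the threshold. The median of the 10 was -0.02, and their summed level was 6821 to 7627 CPM in CDD and 7010.0 to 7264 CPM in ND brains. Of 7 genes of cortical excitatory neurons, *Bhlhe22* fell by 0.37 and *Tbr1* was at 0.08, with a summed level of 870 to 1059 CPM in CDD and 985 to 1018 CPM in ND brains. The part of these marker genes in the changes of the set was not tested.

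The set is used in several regions, and the brains differed in what they held. The 4 genes of the dorsal telencephalon summed to 515 to 636 CPM in CDD and 564 to 615 CPM in ND brains, and of these *Emx2* rose by 0.26. CDD replicate 2, the brain with caudal Hox counts, was the lowest of all 8 for *Insm1*, *Neurod2* and *Neurod6* and the lowest CDD brain for *Neurog2* and *Eomes*. Without it, *Neurog2*, *Neurod4* and *Nhlh1* were at 0.36, 0.58 and 0.48 and passed the threshold, *Eomes* passed at 0.23, and *Neurod2* did not at -0.16 (edgeR adjusted p = 0.110). *Neurog1*, *Insm1*, *Neurod1* and *Neurod6* were then at 0.46, -0.05, 0.09 and -0.05 and did not pass. ND replicate 3, in which *Hba-a1* was highest at 1232 CPM, was the lowest brain for *Neurog1*, *Neurog2*, *Neurod1* and *Nhlh1* and the highest for *Neurod2*. Without it, *Neurog2* and *Nhlh1* were at 0.28 and 0.41 and passed, and *Neurod4* was at 0.60 (edgeR adjusted p = 0.0529). *Neurod2* lost its call at -0.19 (edgeR adjusted p = 0.127). *Neurog1*, *Eomes*, *Insm1*, *Neurod1* and *Neurod6* were at 0.36, 0.18, -0.07, 0.08 and -0.09 without this brain and did not pass.

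Other cell types and regions in which these factors act were also checked. Of all tested genes, 4.24% were called higher and 4.59% lower. Of 7 genes of the ganglionic eminences, *Gad2* was called higher (0.16) and *Lhx6* lower (-0.22), and of 7 of midbrain and hindbrain, *Gbx2* higher (0.45) and *Barhl1* lower (-0.36). Of 5 Cajal-Retzius genes, *Lhx1* was higher (0.29) and *Calb2* lower (-0.32). The median log2 fold changes of the ganglionic eminence, midbrain and hindbrain, and Cajal-Retzius lists were -0.029, -0.0081 and 0.077. Of 5 genes of cranial sensory ganglia, which use *Neurog1* and *Neurod4*, 0 passed edgeR's test, 0 had an unadjusted p-value under 0.05 and 0 passed DESeq2. Among them, *Prph* stood at 17.6 CPM in CDD replicate 2, the brain with caudal Hox counts, and at 2.81 to 4.53 CPM in every other brain. *Pax2*, of the midbrain and hindbrain list, was at 20.1 CPM in CDD replicate 2 and at 1.70 to 4.80 CPM elsewhere. The marker lists are given with all brains only. Of 5 retinal genes, 3 were tested and 1 was called higher. The 5 summed to 5.06 to 7.09 CPM in CDD and 4.33 to 5.09 CPM in ND brains. Of 4 endothelial genes *Cldn5* was lower (-0.28), and of 6 meningeal and choroid plexus genes *Col1a1* and *Col1a2* were lower (-0.23 each) and *Lum* higher (0.29). Of 6 erythroid genes, the embryonic globins *Hbb-y* and *Hba-x*, which other globins replace as development goes on, were higher (2.24 and 1.67). *Hbb-bh1* was at 0.91 and did not pass the threshold. *Hba-a1*, *Hbb-bs* and *Alas2* lay on the other side of 0, at -0.64, -0.84 and -0.50, and did not pass either. *Hbb-y* was at 93.8 to 189 CPM in the CDD brains and at 26.2 to 34.4 CPM in the ND brains. Its part in the values of the 9 genes was not tested. None of the genes of these lists was at 0 reads in every brain.

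Among 12324 other genes that averaged 5 CPM or more, those whose log2 CPM followed the mean profile of the set most closely over the 8 brains were *Phactr4* (r = 0.991), *Pard3b* (r = 0.989), *Ptbp1* (r = 0.988), *Hnrnpf* (r = 0.987) and *Mcm3* (r = 0.987). The profile, the mean of the genes' centred log2 CPM, was 0.13, 0.028, 0.092 and 0.14 in the CDD brains and -0.10, 0.023, -0.17 and -0.14 in the ND brains. It was not scaled by gene, so genes with a wide range weigh most. The highest brain exceeded the lowest by 103% for *Neurod4* and 95.5% for *Neurog1*, but by 16.5% for *Neurod1*. *Insm1*, *Neurod2* and *Neurod6* had estimates below 0, so the profile is not shared by the whole set. The genes named as most alike were picked for this likeness, so the values of r are a description, and part of them is the difference between the diets that the profile itself holds.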

How the data were processed

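For every gene and brain the authors gave the raw count of reads, the count divided by 1 size factor per library (a normalized signal), and FPKM values made from that signal and the listed gene length. HISAT2 2.0.5, featureCounts 1.5.0-p3 and DESeq2 1.20.0 are named in the submitters' processing notes; the genome build is not given in the sources used here. The libraries were made from poly-A RNA, and strand use in counting is not stated. Columns of the authors' own comparison (fold changes and p-values), and the 3 shorter gene lists chosen by it, were not used.

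Raw counts were filtered with filterByExpr (edgeR 4.0.16), scaled by TMM and tested for diet alone by the quasi-likelihood test (robust), with Benjamini-Hochberg adjustment over 19367 genes. Ratios used counts plus 0.5 and an exact permutation test. Alternatives were DESeq2 1.42.0, limma-voom (limma 3.58.1), RLE and upper-quartile scaling, other filters, a gene length offset, a block for replicate number, single brains left out, log2(FPKM + 1), and, added after seeing the data, a GC content offset and thinned libraries. Fits ran in R 4.3.3 and the remaining steps in Python 3.11.15 with SciPy 1.17.1. The genes and lists were chosen with earlier results of these data known. Genes named are the 9, those of the 4 related lists past the threshold, up to 3 per marker list past it by smallest p-value, *Pax6*, and the 5 genes most like the set; a few genes that this rule would name are not reported here. Other genes named (*Tcf3*, *Tcf4*, *Hes1*, *Hes5*, *Hey1*, *Dll1*, *Gadd45g*, *Sox2*, *Slc1a3*, *Fabp7*, *Elavl4*, *Map2*, *Dcx*, *Tubb3*, *Tbr1*, *Prph*, *Pax2*, *Hba-a1*, *Hbb-bh1*, *Hbb-bs* and *Alas2*) were picked after their values were seen. In the gene table, *Eomes*, *Neurod1* and *Neurod6* each overlap another gene, whose counts were at most 31, 21 and 8 per brain.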

Additional observations from a re-analysis of the deposited data

How the results depend on the processing

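The calls of *Neurog2* and *Nhlh1* were made under all 12 other settings and all 8 fits with 1 brain left out, and those of *Insm1*, *Neurod1* and *Neurod6* under none of these. *Neurog1* crossed the threshold with DESeq2 (log2 fold change 0.46), a gene length offset (0.48), the replicate block (0.49), both of these (0.51), no filter on low counts (0.46) and a GC content offset (0.53). *Eomes* crossed it at 0.17 with the length offset and block together and at 0.17 with no filter. Under these settings the genes called in all, in both directions, rose from 1710 to 1895 and 2374. The fit with no filter also tested more genes. With log2(FPKM + 1) from the authors' FPKM, *Neurod4* (0.35) and *Neurod2* (-0.20) lost their calls, 390 genes were called in all and 5 genes of the related lists higher. The added 1 shrinks the difference for *Neurod4*, whose mean was 1.91 FPKM with the CDD and 1.27 FPKM with ND. With the GC content offset, *Neurod2* was at -0.13 and *Insm1* at 0.019, and 1643 genes were called in all. Of the related lists, 13 genes were then called higher, as many as with no filter (13). The number of the 9 called lower was 0 with FPKM, with the GC content offset and at an adjusted p-value of 0.01, where 477 genes were called in all. Under these 3 settings, *Neurod2* kept its sign.

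With 1 brain left out, between 471 and 2495 genes were called (1710 with all brains), and of the 9 genes 0 to 1 lower. The log2 fold change lay between 0.36 and 0.67 for *Neurog1*, 0.12 and 0.23 for *Eomes*, 0.48 and 0.70 for *Neurod4*, and -0.27 and -0.16 for *Neurod2*. The fewest genes, 471, 615 and 688, were called without ND replicates 3, 4 and 1, and the most, 2495, without CDD replicate 3. The cause was not tested. The median correlation between the 9 genes fell to 0.0094 without CDD replicate 2 and ND replicate 3. Same-numbered brains correlated between -0.13 and 0.23 over genes after removing diet means, and 6 of 8 brains correlated best with their own number. Pairs 1, 3 and 4 lay at 0.10, 0.12 and 0.23 and pair 2 at -0.13. These values do not settle whether the numbers pair the brains, and the main fit took diet alone. With the replicate block, *Neurog1* was called (edgeR adjusted p = 0.0248) and no other gene of the 9 changed its call. The ratio differences kept their sign under every alternative. *Neurog1* and *Neurod4*, with 133 to 280 and 129 to 254 reads per brain, had the largest standard errors of the 9 genes (0.15 and 0.14). What sets these errors was not tested.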
